A study of Mus musculus with 17 samples.

Results

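Genes of mitosis and of the mitotic spindle were followed in the colon of mice given dextran sodium sulfate (DSS). The set is a list of 37 genes, taken by symbol: a probe set belongs to a gene if it carries that symbol alone, and the probe set with the highest mean over all samples stands for the gene. In this way 36 of the 37 genes were measured, with 83 probe sets, among 18193 genes on the array. Ccnb1, a cyclin that activates Cdk1, had no probe set under its symbol and is only named here.

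The mice were on a C57BL/6J background. CD4cre mice were PPAR γ flfl; CD4Cre+, and WT mice were Cre-. The Cre recombinase was driven by CD4 and is active in thymocytes that carry both CD4 and CD8, so that PPAR γ was lost from CD4+ and from CD8+ T cells and kept in other cells. Mice of both genotypes drank water with 2.5% DSS and were sampled on day 0 (no DSS), day 2 and day 7. Each group had 3 arrays, except WT mice on day 7 with 2, which makes 17 samples in 6 groups. The age of the mice was not given, and it is not stated if the RNA on an array came from 1 mouse or from several. Samples are called mice below, and p-values measure the spread between these samples.

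Dividing cells of the colon lie in the lower part of the crypts, where stem cells and their transit-amplifying daughters renew the epithelium. Genes of mitosis are switched on together late in the cell cycle, mainly by the MuvB complex with B-Myb and FoxM1, which acts at promoters with a CHR element (cell cycle genes homology region) and, often, with CCAAT boxes bound by NF-Y. In cells that do not divide, the DREAM complex holds the same promoters silent. In bulk tissue the level of these genes follows how many cells divide and how much RNA each of them holds, and these cannot be told apart.

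The promoters of these genes are shown first because they share a feature that the choice of the genes did not use. RefSeq (GRCm38.p6) windows from 250 bases before to 50 bases after the start of a gene were at hand for 30 of the 36 measured genes. Incenp, Kif20a, Ccna2, Tpx2, Foxm1 and Aurkb had no window in the table. A CHR element, searched as TTTGAA on both strands (TTCAAA on the other), was found in 23 of the 30 genes (76.7%), against 15.7% of the 14453 genes with a probe set and a window. A CCAAT box, searched as CCAAT on both strands (ATTGG on the other), was in 20 of the 30 (66.7%), against 42.0%. Both motifs were in 18 (60.0%), against 6.21%. The last base of one motif can be the first of the other. At least 2 CHR elements were in 8 of the 30 (26.7%), against 1.76%. These are matches of letters, and binding was not measured.

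Of the 12 genes called lower in WT mice on day 2 (adjusted p under 0.05), 11 held a CHR element. The 12th, Cenpe, held a CCAAT box. Of the 18 other genes with a window, 12 held a CHR element. The means of these 18 were lower on day 2 as well, and only the threshold parts them from the 12. Aurka, not called, had a log2 fold change of -2.22, and Kif23, called, had -1.40. A link of the element to the fall was not tested. Stretches of 30 bases around 1 element are given for 10 of the 11 genes, 5′ to 3′ along the strand of the gene, with the CHR element in capitals.
Ect2, chr3:27153822-27153851, minus strand: cgactggattttTTTGAAtcggaggcggca
Cenpf, chr1:189688067-189688096, minus strand: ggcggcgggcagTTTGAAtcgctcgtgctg
Cenpa, chr5:30666890-30666919, plus strand: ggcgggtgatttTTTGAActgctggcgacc
Kif23, chr9:61946780-61946809, minus strand: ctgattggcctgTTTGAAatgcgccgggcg
Ttk, chr9:83834684-83834713, plus strand: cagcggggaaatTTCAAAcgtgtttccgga
Aspm, chr1:139454767-139454796, plus strand: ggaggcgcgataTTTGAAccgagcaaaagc
Plk1, chr7:122159453-122159482, plus strand: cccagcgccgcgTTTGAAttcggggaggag
Cdc20, chr4:118437344-118437373, minus strand: agacagttgggtTTTGAAggagccaatgaa
Mki67, chr7:135716478-135716507, minus strand: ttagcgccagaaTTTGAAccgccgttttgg
Anln, chr9:22389168-22389197, minus strand: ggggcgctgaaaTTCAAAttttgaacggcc
In 8 of these 10 stretches the element lay after the start of the gene, and in those of Cdc20 and Mki67 before it. The element in capitals is written as TTTGAA in 8 stretches and as TTCAAA in those of Ttk and Anln. The stretch of Anln also holds a further element, TTTGAA, left in small letters.

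The 160 bases before the start are given for 3 genes that are widely used as marks of dividing cells, with CHR elements and CCAAT boxes in capitals. Mki67 holds 2 CHR elements and 1 CCAAT box in this stretch, Cdk1 holds 2 and 2, and Top2a holds 1 and 4.
Mki67, chr7:135716380-135716539, minus strand: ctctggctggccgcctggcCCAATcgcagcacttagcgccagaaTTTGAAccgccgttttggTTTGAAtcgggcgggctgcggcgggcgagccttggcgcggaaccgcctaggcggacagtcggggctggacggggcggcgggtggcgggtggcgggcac
Cdk1, chr10:69352913-69353072, minus strand: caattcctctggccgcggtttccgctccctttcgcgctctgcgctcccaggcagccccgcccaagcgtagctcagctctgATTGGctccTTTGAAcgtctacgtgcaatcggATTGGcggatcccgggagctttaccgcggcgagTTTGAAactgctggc
Top2a, chr11:99024190-99024349, minus strand: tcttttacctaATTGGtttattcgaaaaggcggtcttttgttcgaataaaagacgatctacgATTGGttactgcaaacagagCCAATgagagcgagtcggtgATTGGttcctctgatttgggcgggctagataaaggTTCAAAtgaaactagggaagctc
Kif15, a motor of the spindle that was at background in every sample, held 2 CHR elements in its window as well.

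Values are log2 values from gcRMA, and levels are not compared between genes. Falls, rises and differences are given on this log2 scale unless they are called a fold. Background was taken as 3.25, the 95th percentile over 122 probe sets of 89 genes that other tissues express. Of the 36 genes, 35 were above it in at least 1 group. With the 22 genes that were left out of that list after their values were seen, the level would be 5.01, and 33 of the 36 genes would be above it, without Ndc80 and Foxm1. Kif15 lay between 2.57 and 2.72 in all samples and is not described further. Markers of epithelium (8 genes, among them Epcam and Cdh1) had a mean between 12.8 and 13.4 in every sample. Markers of T cells (6 genes) had a mean between 2.98 and 3.60, close to background. Pparg itself lay between 8.28 and 11.2. Its values overlapped between the genotypes on day 0 and on day 7. On day 2 the CD4cre mice (9.83 to 10.40) were above the WT mice (9.18 to 9.79). A deletion in T cells could not be checked in this tissue. Genes of pancreatic digestive enzymes had a median of 12.3 or more in 3 samples and of 2.69 or less in the others. These 3 were replicate 2 of WT mice on day 2, replicate 2 of untreated CD4cre mice and replicate 1 of CD4cre mice on day 2.

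Mitosis genes were highest in untreated WT mice and lowest on day 2 in both genotypes. The mean of the 36 genes was 7.88 ± 0.19 (SD, n = 3) in untreated WT mice, with values of 7.75, 8.09 and 7.78. It was 7.17 ± 0.42 in CD4cre mice on day 0 (7.51, 7.29 and 6.70). On day 2 it was 6.26 ± 0.29 in WT mice (6.33, 6.50 and 5.93) and 6.19 ± 0.33 in CD4cre mice (5.81, 6.43 and 6.34). Every untreated mouse of either genotype lay above every mouse of day 2. On day 7 it was between these levels, at 6.95 and 7.30 in the 2 WT mice and at 6.72 ± 0.51 in CD4cre mice (7.13, 6.15 and 6.87). The ranges of CD4cre day 0, WT day 7 and CD4cre day 7 overlapped, and so did those of the day 2 groups. CD4cre day 7 also overlapped with day 2, through replicate 2 alone. WT mice on day 0 stood above all other groups without overlap.

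**Figure D1:**
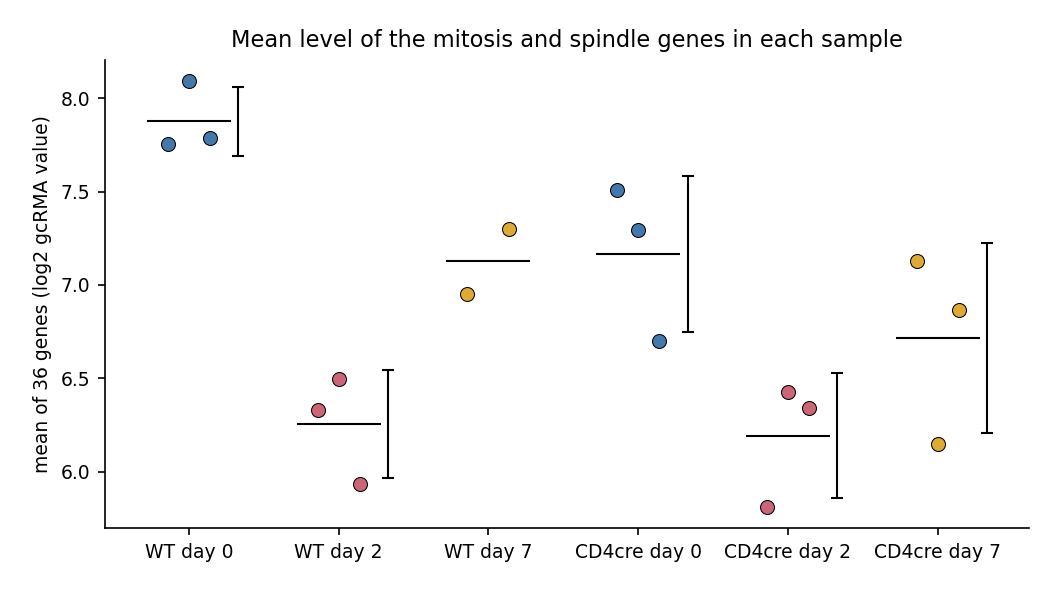
Mean of the 36 measured mitosis and spindle genes in each sample (log2 gcRMA value) for each genotype and day of DSS. Each point is a sample, lines are group means and bars are the SD of groups of 3; the WT day 0 samples lie between 7.75 and 8.09 and the day 2 samples of both genotypes between 5.81 and 6.50.

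The genes moved together. Of the 630 pairs of genes, 628 had a positive Pearson correlation over the 17 samples, with a median r of 0.86 and a range from -0.06 to 0.99, and these pairs share the samples and the group differences. The gene closest to the mean of the others was Cdc20, which activates the anaphase-promoting complex (r = 0.99). After Kif15, the least close was Foxm1 (r = 0.66), which lay near background, followed by Ndc80 (r = 0.80) and Prc1 (r = 0.81). WT mice on day 0 were the highest group for all 36 genes. The lowest group was WT or CD4cre day 2 for 32 of them and CD4cre day 7 for Kif15, Aurkb, Bub1b and Kif20b.

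**Figure D2:**
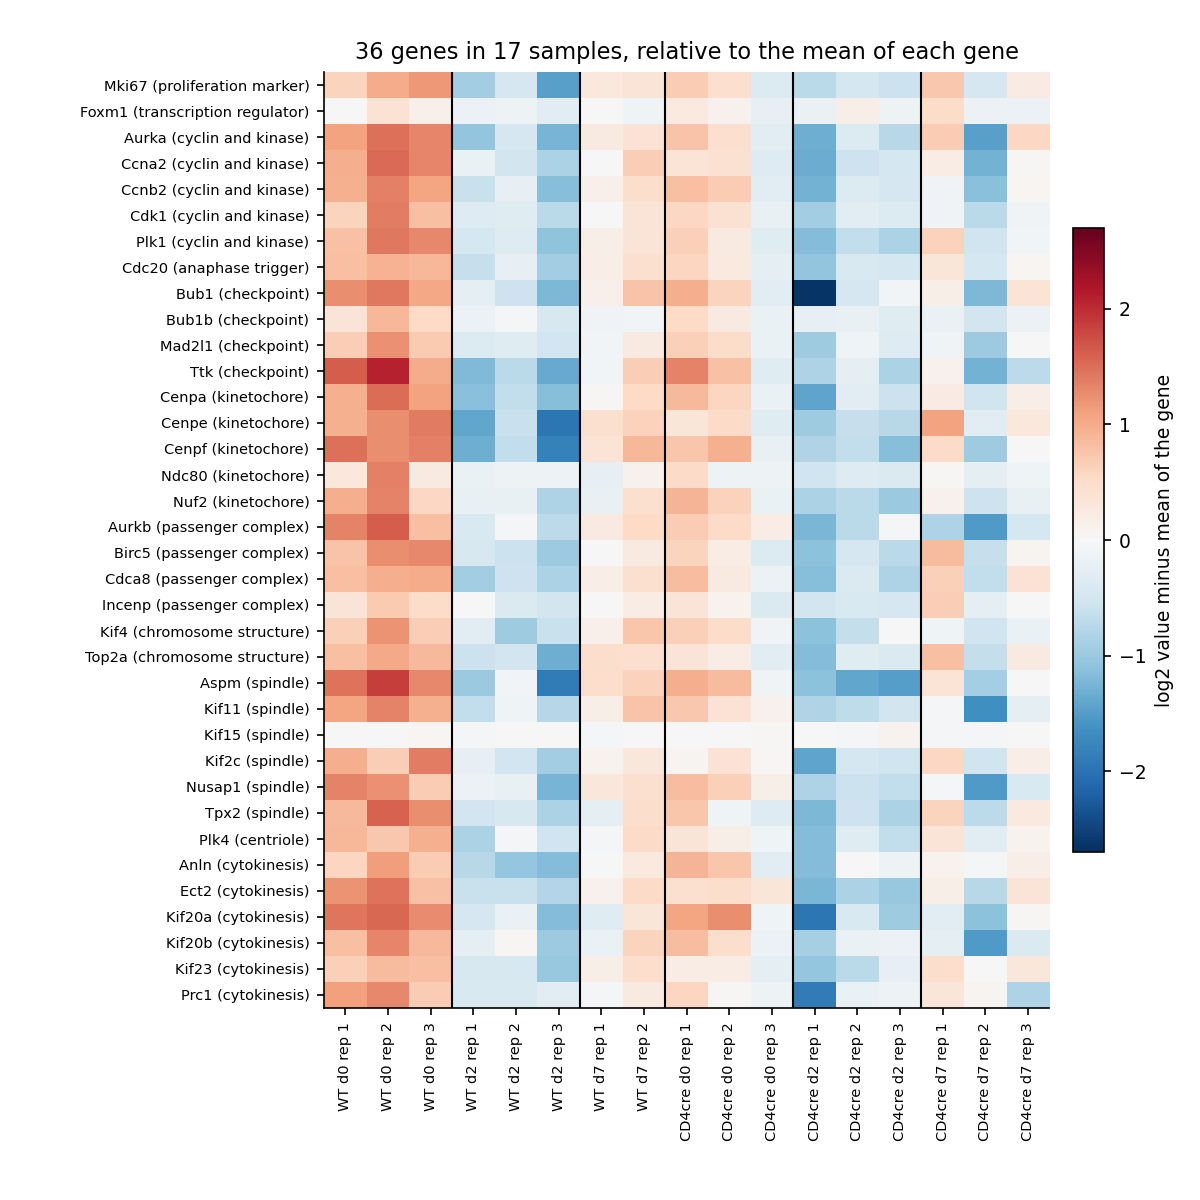
Log2 value of each of the 36 genes (rows, with their role) in each of the 17 samples (columns, rep for replicate) minus the mean of the gene over all samples. Red is above and blue below that mean; the 3 WT day 0 columns are red and the 6 day 2 columns blue for nearly all genes, and Kif15 is flat.

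The first comparison asked what 2 days of DSS did in WT mice. Against day 0, 12 of the 36 genes fell and none rose, with a median log2 fold change of -1.67 over the 36 genes. Of all genes, 0.297% were called lower (54 of 18193), and their median was -0.02. The ranges of day 0 and day 2 did not overlap for any of the 36 genes, against 11.4% of all genes with no overlap in this direction. At an unadjusted p under 0.05, 34 of the 36 were lower, against 6.35% of all genes, and the others were Foxm1 and Kif15. In CD4cre mice none of the 36 was called by limma, as was none of all 18193 genes in this direction (0%), and 29 were lower at an unadjusted p under 0.05, against 3.42%. The median log2 fold change was -0.94, with 35 of 36 means lower, and 27 genes did not overlap, against 13.1%. With both genotypes in 1 contrast, 29 of the 36 fell, with a median of -1.35, against 0.715% of all genes (130 of 18193). The 27 genes of CD4cre mice did not overlap in WT mice either, which was so for 2.35% of all genes.

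The kinetochore joins a chromosome to the spindle. Cenpf, a large protein of the outer kinetochore, was at 8.44, 8.21 and 8.31 in untreated WT mice, 5.64, 6.30 and 5.14 on day 2 and 7.33 and 7.86 on day 7. Cenpf in CD4cre mice was at 7.70, 7.91 and 6.76 on day 0, 6.15, 6.28 and 5.80 on day 2 and 7.47, 6.00 and 6.93 on day 7. Its values on day 2 were below every value of day 0 in both genotypes. Cenpf fell by 2.63 (SE 0.40, adjusted p = 0.027) in WT mice, or 6.19-fold, with a log2 fold change of -1.38 (standard error 0.40, adjusted p = 0.399) in CD4cre mice. Cenpe, the kinesin that carries chromosomes to the spindle equator, was at 7.47, 7.79 and 7.92 in untreated WT mice, 5.12, 5.92 and 4.58 on day 2 and 6.95 and 7.15 on day 7. Cenpe in CD4cre mice was at 6.85, 7.04 and 6.19 on day 0, 5.57, 5.90 and 5.78 on day 2 and 7.60, 6.22 and 6.81 on day 7. WT mice on day 2 held the 2 lowest values, and CD4cre mice on day 7 reached those of day 0. Cenpe fell by 2.52 (SE 0.37, adjusted p = 0.0238) in WT mice, against -0.94 (standard error 0.37, adjusted p = 0.639) in CD4cre mice. The difference of these effects was 1.58 (95% interval 0.43 to 2.72, adjusted p = 1.00), the largest of the 36.

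Cenpa, the histone variant that marks the centromere, was at 8.23, 8.78 and 8.36 in untreated WT mice, 6.16, 6.62 and 6.12 on day 2 and 7.31 and 7.80 on day 7. Cenpa in CD4cre mice was at 8.15, 7.86 and 7.10 on day 0, 5.85, 6.97 and 6.70 on day 2 and 7.50, 6.73 and 7.45 on day 7. Neither genotype had an overlap of day 0 with day 2. Cenpa fell by 2.16 (SE 0.34, adjusted p = 0.0287) in WT mice, with -1.20 (standard error 0.34, adjusted p = 0.385) in CD4cre mice. Nuf2, a subunit of the Ndc80 complex that grips microtubules, was at 7.39, 7.75 and 6.98 in untreated WT mice, 6.22, 6.23 and 5.58 on day 2 and 6.22 and 6.85 on day 7. Nuf2 in CD4cre mice was at 7.34, 7.04 and 6.23 on day 0, 5.57, 5.70 and 5.41 on day 2 and 6.53, 5.87 and 6.22 on day 7. Day 2 was again below day 0 in both genotypes. Its log2 fold changes were -1.36 and -1.31, and Nuf2 fell by 1.34 (SE 0.22, adjusted p = 0.0191) with both genotypes in 1 contrast. Ndc80, its partner, ranged from 3.26 to 5.17 and was not called in any comparison.

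**Figure D3:**
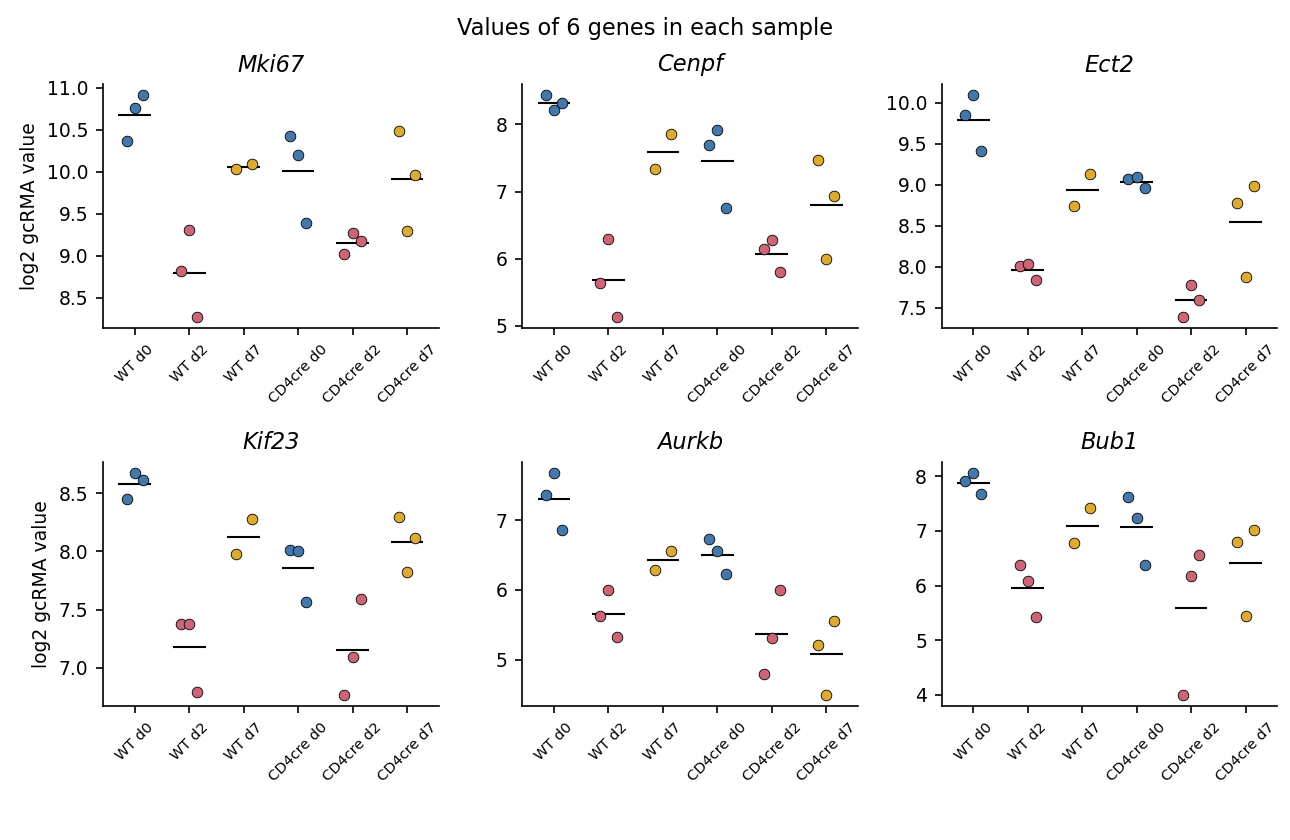
Log2 gcRMA values of Mki67, Cenpf, Ect2, Kif23, Aurkb and Bub1 in each sample by genotype and day (d) of DSS. Points are samples, coloured by day, and lines are group means; day 2 is low in both genotypes for Cenpf and Ect2, while Kif23 is back at its day 0 level in CD4cre mice on day 7 and Aurkb is not.

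The spindle checkpoint holds anaphase until all kinetochores are attached. Ttk, the kinase at its head, was at 5.78, 6.24 and 5.15 in untreated WT mice, 2.96, 3.42 and 2.80 on day 2 and 4.09 and 4.82 on day 7. Ttk in CD4cre mice was at 5.49, 4.94 and 3.82 on day 0, 3.33, 3.91 and 3.30 on day 2 and 4.27, 2.88 and 3.44 on day 7. In WT mice on day 2, 2 of the 3 values lay below the level of 3.25. In CD4cre mice the ranges of days 0 and 2 overlapped. Ttk fell by 2.67 (SE 0.46, adjusted p = 0.0361) in WT mice, at least 5.56-fold when day 2 is set at background, and at least 1.64-fold with the level of 5.01. Bub1, a kinase of the checkpoint, was at 7.91, 8.06 and 7.68 in untreated WT mice, 6.38, 6.08 and 5.43 on day 2 and 6.77 and 7.42 on day 7. Bub1 in CD4cre mice was at 7.61, 7.24 and 6.37 on day 0, 4.01, 6.18 and 6.56 on day 2 and 6.80, 5.43 and 7.01 on day 7. CD4cre day 2 replicate 1, a sample with pancreatic transcripts, stood far below the others of its group. Bub1 had log2 fold changes of -1.92 (standard error 0.62, adjusted p = 0.264) in WT and -1.49 (standard error 0.62, adjusted p = 0.688) in CD4cre mice. It was not called with this probe set. Its other probe set, with a highest group mean of 4.33, had -1.21 (adjusted p = 0.0495) in WT mice and -0.73 (adjusted p = 0.474) in CD4cre mice. That probe set had -0.97 (adjusted p = 0.0219) with both genotypes in 1 contrast. In CD4cre mice on day 7 against day 0 it had -0.87 (adjusted p = 0.0449). Mad2l1 and Bub1b, which inhibit the anaphase-promoting complex, fell with both genotypes in 1 contrast, by 1.03 (SE 0.21, adjusted p = 0.0456) and 0.63 (SE 0.13, adjusted p = 0.0447).

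Once that brake is lifted, Cdc20 activates the anaphase-promoting complex and starts anaphase. It was at 10.75, 10.88 and 10.82 in untreated WT mice, 9.31, 9.72 and 8.99 on day 2 and 10.11 and 10.36 on day 7. CD4cre mice had Cdc20 at 10.51, 10.19 and 9.66 on day 0, 8.88, 9.52 and 9.46 on day 2 and 10.26, 9.47 and 9.996 on day 7. All 3 mice of day 2 were below all 3 of day 0 in each genotype. Cdc20 fell by 1.48 (SE 0.27, adjusted p = 0.0415) in WT mice and had a log2 fold change of -0.84 (standard error 0.27, adjusted p = 0.475) in CD4cre mice.

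Cyclins and mitotic kinases drive entry into mitosis. Cdk1, the kinase that starts it, was at 9.11, 9.90 and 9.33 in untreated WT mice, 8.17, 8.18 and 7.79 on day 2 and 8.53 and 8.87 on day 7. Cdk1 in CD4cre mice was at 9.07, 8.94 and 8.32 on day 0, 7.58, 8.23 and 8.15 on day 2 and 8.42, 7.78 and 8.43 on day 7. Its day 2 values were below those of day 0 without overlap in each genotype. Cdk1 missed the threshold in WT mice, at -1.40 (standard error 0.27, adjusted p = 0.0547), and fell by 1.09 (SE 0.19, adjusted p = 0.0268) with both genotypes in 1 contrast. Of its cyclins, Ccna2 fell by 1.37 (SE 0.28, adjusted p = 0.042) and Ccnb2 by 1.45 (SE 0.27, adjusted p = 0.0317).

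Plk1, a kinase of centrosomes and kinetochores, was at 6.37, 7.01 and 6.88 in untreated WT mice, 5.11, 5.23 and 4.51 on day 2 and 5.75 and 5.93 on day 7. Plk1 in CD4cre mice was at 6.23, 5.83 and 5.26 on day 0, 4.41, 4.92 and 4.73 on day 2 and 6.20, 5.04 and 5.51 on day 7. The day 2 mice were lowest in each genotype. Plk1 fell by 1.81 (SE 0.32, adjusted p = 0.041) in WT mice, with -1.09 (standard error 0.32, adjusted p = 0.418) in CD4cre mice. Aurka, the Aurora kinase of the spindle poles, was at 7.87, 8.26 and 8.10 in untreated WT mice, 5.71, 6.32 and 5.52 on day 2 and 7.03 and 7.17 on day 7. Aurka in CD4cre mice was at 7.56, 7.24 and 6.50 on day 0, 5.46, 6.41 and 6.04 on day 2 and 7.47, 5.32 and 7.34 on day 7. CD4cre day 7 replicate 2 was the lowest of all samples, while the other mice of that group were near the level of day 0. Aurka had a log2 fold change of -2.22 (standard error 0.50, adjusted p = 0.0783) in WT mice and fell by 1.67 (SE 0.35, adjusted p = 0.0498) with both genotypes in 1 contrast. Plk4, which starts the copying of centrioles, was at 8.11, 7.96 and 8.18 in untreated WT mice, 6.36, 7.20 and 6.68 on day 2 and 7.16 and 7.74 on day 7. Plk4 in CD4cre mice was at 7.57, 7.39 and 7.11 on day 0, 6.05, 6.90 and 6.55 on day 2 and 7.58, 6.93 and 7.32 on day 7. Day 2 was below day 0 without overlap in each genotype. Plk4 fell by 1.10 (SE 0.19, adjusted p = 0.0232) with both genotypes in 1 contrast.

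The chromosomal passenger complex corrects faulty attachments and steers cytokinesis. Cdca8 (borealin) was at 8.71, 8.88 and 8.89 in untreated WT mice, 6.97, 7.34 and 7.04 on day 2 and 8.08 and 8.34 on day 7. Cdca8 in CD4cre mice was at 8.74, 8.14 and 7.73 on day 0, 6.75, 7.52 and 7.07 on day 2 and 8.54, 7.24 and 8.29 on day 7. Day 2 was below day 0 in each genotype, and the means of day 7 came between. Cdca8 fell by 1.71 (SE 0.33, adjusted p = 0.0496) in WT mice, with -1.09 (standard error 0.33, adjusted p = 0.422) in CD4cre mice. Birc5 (survivin) was at 9.45, 9.95 and 9.999 in untreated WT mice, 8.26, 8.11 and 7.71 on day 2 and 8.67 and 8.94 on day 7. Birc5 in CD4cre mice was at 9.30, 8.89 and 8.33 on day 0, 7.59, 8.24 and 7.96 on day 2 and 9.56, 8.06 and 8.76 on day 7. CD4cre mice of day 7 overlapped with days 0 and 2. Birc5 missed the threshold in WT mice, at -1.77 (standard error 0.35, adjusted p = 0.0553), and fell by 1.34 (SE 0.25, adjusted p = 0.0297) with both genotypes in 1 contrast. Incenp, the scaffold of the complex, moved least of its members in the pooled contrast, at -0.64 (standard error 0.17, adjusted p = 0.106), and was not called.

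Among spindle genes, Aspm, which focuses the spindle poles, was at 7.23, 7.63 and 7.06 in untreated WT mice, 4.76, 5.69 and 3.87 on day 2 and 6.24 and 6.39 on day 7. Aspm in CD4cre mice was at 6.75, 6.60 and 5.67 on day 0, 4.65, 4.35 and 4.27 on day 2 and 6.13, 4.84 and 5.75 on day 7. Within each genotype day 2 was below day 0 without overlap. Aspm fell by 2.53 (SE 0.44, adjusted p = 0.0376) in WT mice and had a log2 fold change of -1.92 (standard error 0.44, adjusted p = 0.219) in CD4cre mice. Kif11, the kinesin that pushes the poles apart, was at 8.40, 8.68 and 8.30 in untreated WT mice, 6.67, 7.22 and 6.57 on day 2 and 7.50 and 8.11 on day 7. Kif11 in CD4cre mice was at 8.07, 7.73 and 7.44 on day 0, 6.53, 6.65 and 6.83 on day 2 and 7.27, 5.69 and 7.07 on day 7. In CD4cre mice the mean of day 7 was as low as that of day 2, through replicate 2 alone. The other mice of day 7 were above every CD4cre mouse of day 2. Kif11 fell by 1.36 (SE 0.25, adjusted p = 0.0297) on day 2 with both genotypes in 1 contrast. The other spindle genes called in that contrast were Tpx2 with a fall of 1.41 (SE 0.26, adjusted p = 0.0297), Nusap1 with 1.43 (SE 0.27, adjusted p = 0.0309) and Kif2c with 1.27 (SE 0.23, adjusted p = 0.0264).

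Topoisomerase II alpha, Top2a, untangles sister chromatids. It was at 9.77, 9.98 and 9.83 in untreated WT mice, 8.39, 8.47 and 7.64 on day 2 and 9.43 and 9.43 on day 7. CD4cre mice had Top2a at 9.32, 9.16 and 8.67 on day 0, 7.80, 8.63 and 8.58 on day 2 and 9.79, 8.32 and 9.21 on day 7. Day 2 was below day 0 in each genotype, and in CD4cre mice day 7 overlapped with both. Top2a had a log2 fold change of -1.69 (standard error 0.35, adjusted p = 0.0623) in WT mice and fell by 1.20 (SE 0.25, adjusted p = 0.0461) with both genotypes in 1 contrast. Kif4, a kinesin that shapes chromosome arms, fell by 1.20 (SE 0.21, adjusted p = 0.027) in that contrast. Mki67, the proliferation marker Ki-67 that coats mitotic chromosomes, was at 10.36, 10.76 and 10.91 in untreated WT mice, 8.81, 9.31 and 8.28 on day 2 and 10.03 and 10.09 on day 7. Mki67 in CD4cre mice was at 10.43, 10.20 and 9.39 on day 0, 9.03, 9.27 and 9.18 on day 2 and 10.48, 9.29 and 9.97 on day 7. Day 2 was below day 0 without overlap in each genotype. Mki67 had a log2 fold change of -0.85 (standard error 0.34, adjusted p = 0.649) in CD4cre mice, and the difference of the genotypes' effects was 1.03 (95% interval -0.01 to 2.07, adjusted p = 1.00).

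Cytokinesis separates the daughter cells. Ect2, which activates RhoA at the cleavage furrow, was at 9.85, 10.09 and 9.41 in untreated WT mice, 8.02, 8.03 and 7.84 on day 2 and 8.74 and 9.14 on day 7. Ect2 in CD4cre mice was at 9.06, 9.09 and 8.96 on day 0, 7.39, 7.78 and 7.60 on day 2 and 8.78, 7.88 and 8.98 on day 7. Values of day 2 were close together and more than 1 log2 unit below each value of day 0 in both genotypes. Ect2 had the lowest adjusted p of the 36 genes in both genotypes: it fell by 1.82 (SE 0.25, adjusted p = 0.0201) in WT mice, or 3.53-fold, and had a log2 fold change of -1.45 (standard error 0.25, adjusted p = 0.131) in CD4cre mice. The difference of these effects was 0.37 (95% interval -0.40 to 1.15). Kif23, the motor of the central spindle, was at 8.45, 8.68 and 8.61 in untreated WT mice, 7.37, 7.37 and 6.79 on day 2 and 7.98 and 8.28 on day 7. Kif23 in CD4cre mice was at 8.01, 8.01 and 7.57 on day 0, 6.77, 7.09 and 7.59 on day 2 and 8.29, 7.82 and 8.12 on day 7. CD4cre day 2 replicate 3 lay just above the lowest value of day 0. Kif23 fell by 1.40 (SE 0.22, adjusted p = 0.0287) in WT mice, with -0.71 (standard error 0.22, adjusted p = 0.472) in CD4cre mice.

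Anln (anillin), a scaffold of the contractile ring, was at 8.11, 8.64 and 8.20 in untreated WT mice, 6.78, 6.48 and 6.34 on day 2 and 7.50 and 7.78 on day 7. Anln in CD4cre mice was at 8.44, 8.28 and 7.24 on day 0, 6.36, 7.52 and 7.38 on day 2 and 7.62, 7.49 and 7.69 on day 7. Days 0 and 2 were apart in WT mice and overlapped in CD4cre mice. Anln fell by 1.78 (SE 0.33, adjusted p = 0.047) in WT mice, with -0.90 (standard error 0.33, adjusted p = 0.598) in CD4cre mice. Kif20a, a motor that brings the passenger complex to the midzone, was at 7.19, 7.29 and 7.02 in untreated WT mice, 5.29, 5.57 and 4.59 on day 2 and 5.42 and 6.08 on day 7. Kif20a in CD4cre mice was at 6.80, 7.00 and 5.63 on day 0, 3.80, 5.33 and 4.80 on day 2 and 5.46, 4.64 and 5.77 on day 7. Day 2 was below day 0 in each genotype, with log2 fold changes of -2.02 and -1.83. Kif20a fell by 1.92 (SE 0.33, adjusted p = 0.0223) with both genotypes in 1 contrast. Prc1, which bundles the microtubules of the midzone, was at 8.03, 8.22 and 7.60 in untreated WT mice, 6.52, 6.52 and 6.63 on day 2 and 6.90 and 7.17 on day 7. Prc1 in CD4cre mice was at 7.51, 6.95 and 6.78 on day 0, 5.04, 6.74 and 6.79 on day 2 and 7.25, 7.00 and 6.09 on day 7. CD4cre day 2 replicate 1 stood apart from the other day 2 mice, as it did for Bub1. Prc1 was at -1.14 (standard error 0.30, adjusted p = 0.113) in the pooled contrast and was not called with this probe set. The other Prc1 probe set was at -1.26 (adjusted p = 0.031) in that contrast and was called. Kif20b was not called.

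Foxm1, a transcription factor of mitotic genes, was at 3.69, 4.07 and 3.82 in untreated WT mice, 3.53, 3.55 and 3.38 on day 2 and 3.69 and 3.57 on day 7. Foxm1 in CD4cre mice was at 3.95, 3.80 and 3.46 on day 0, 3.51, 3.85 and 3.54 on day 2 and 4.19, 3.52 and 3.52 on day 7. These values were close to background and overlapped between days in CD4cre mice. Foxm1 had a log2 fold change of -0.38 (standard error 0.18, adjusted p = 0.564) in WT mice and was not called in any comparison.

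**Figure D4:**
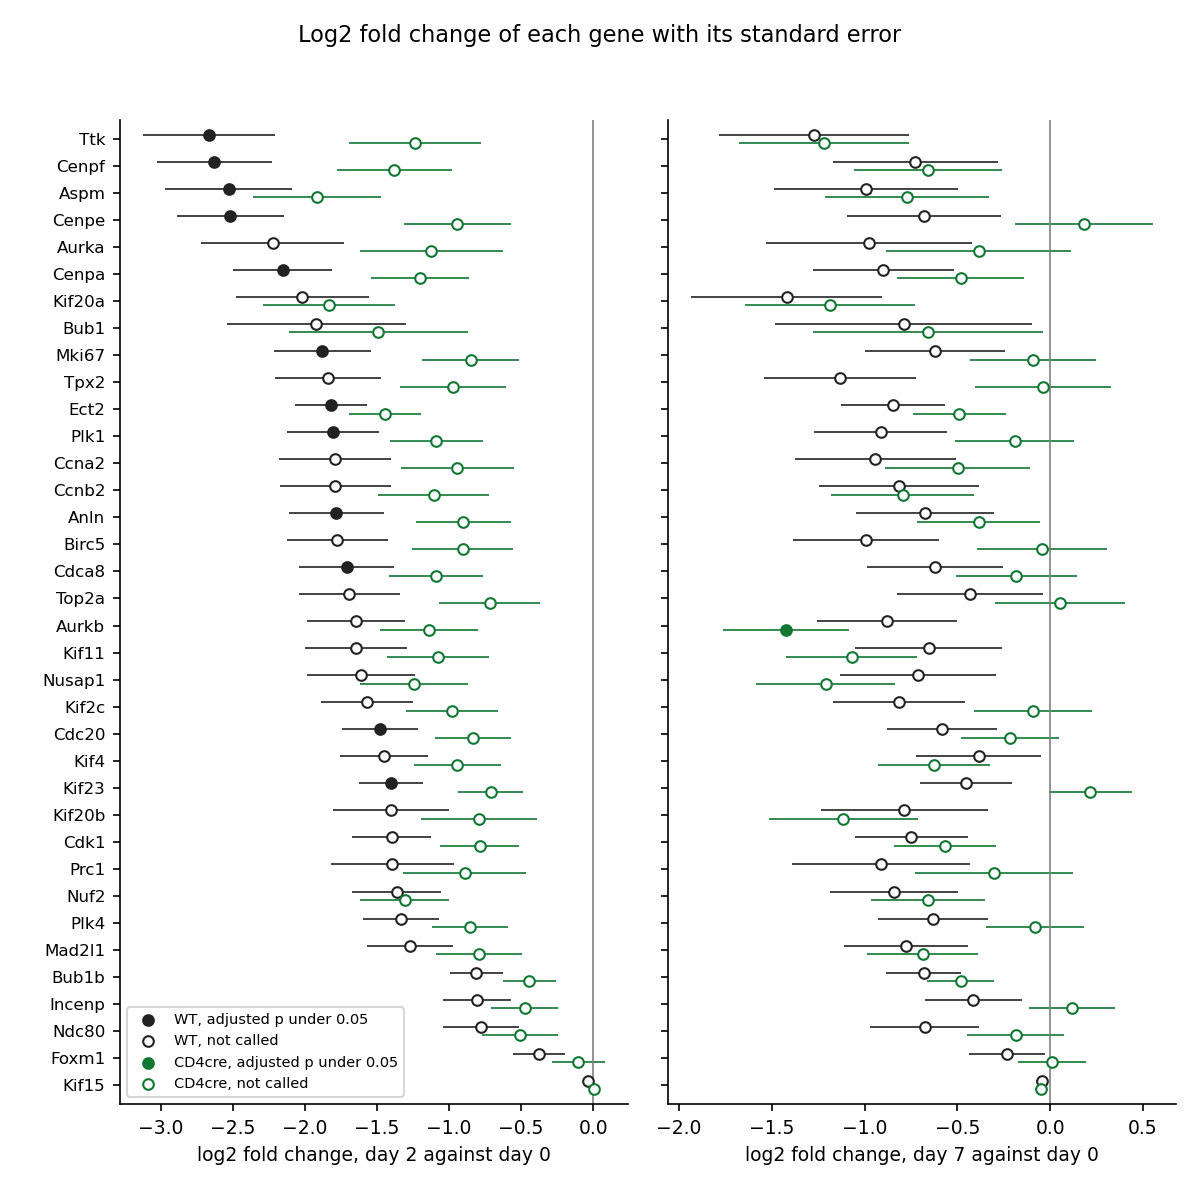
Log2 fold change of each of the 36 genes on day 2 (left) and day 7 (right) of DSS against day 0, in WT mice (black) and CD4cre mice (green), with standard errors from limma. Filled points have an adjusted p under 0.05: 12 genes in WT mice on day 2 and Aurkb in CD4cre mice on day 7.

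The calls on day 2 depended on single samples. In each of the 17 fits that left out 1 sample, all 36 means stayed lower on day 2 with both genotypes in 1 contrast. In WT mice they had to stay lower, because the ranges of day 0 and day 2 did not overlap for any of the 36 genes. The count of 12 genes in WT mice was 0 without WT day 0 replicate 1 or WT day 2 replicate 1, 1 without replicate 3 of either group, 3 without WT day 0 replicate 2 or either WT mouse of day 7, and 4 without WT day 2 replicate 2. It was 5 without CD4cre day 0 replicate 2 or CD4cre day 2 replicate 2 or 3, 6 without CD4cre day 7 replicate 3, and 26 without CD4cre day 7 replicate 2. The pooled count of 29 was 7 without CD4cre day 0 replicate 2, 11 without replicate 1 of that group, 10, 17 and 14 without each WT mouse of day 2, 18, 18 and 17 without each of WT day 0, and 18 and 19 without CD4cre day 2 replicates 1 and 3. Without the 3 samples with pancreatic transcripts, Cenpe alone was called in WT mice and Aspm alone in the pooled contrast, with medians of -1.81 and -1.28.

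Samples also differed in Hox genes, whose expression changes along the colon. A position score, the mean of 9 posterior minus 8 anterior Hox genes above background, was taken for each sample, and a split at -0.6 was chosen after the values were seen. The score was between -0.31 and 1.13 in all 6 mice of day 2, in WT day 0 replicate 2, in CD4cre day 0 replicates 1 and 2 and in CD4cre day 7 replicate 2. It was between -1.49 and -0.93 in the other 7 samples. Among the 10 samples with the higher score, the mean of the 36 genes was 8.09, 7.51 and 7.29 on day 0, 5.81 to 6.50 on day 2 and 6.15 in the mouse of day 7. The scores in this subset were not matched between days: the 1 WT mouse of day 0 was at -0.03 and the WT mice of day 2 were at 0.77, 1.06 and 1.13. Over the genes the medians were -1.86 in WT and -1.19 in CD4cre mice. With 1 WT sample on day 0, which the fit assumes to vary like the other groups, 2 genes were called in WT mice, and 16 with both genotypes in 1 contrast. The part of position in the day 2 difference cannot be told apart from that of DSS in WT mice. With the score as a covariate no gene was called, with medians of -1.53 in WT mice and -1.28 with both genotypes in 1 contrast.

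**Figure D5:**
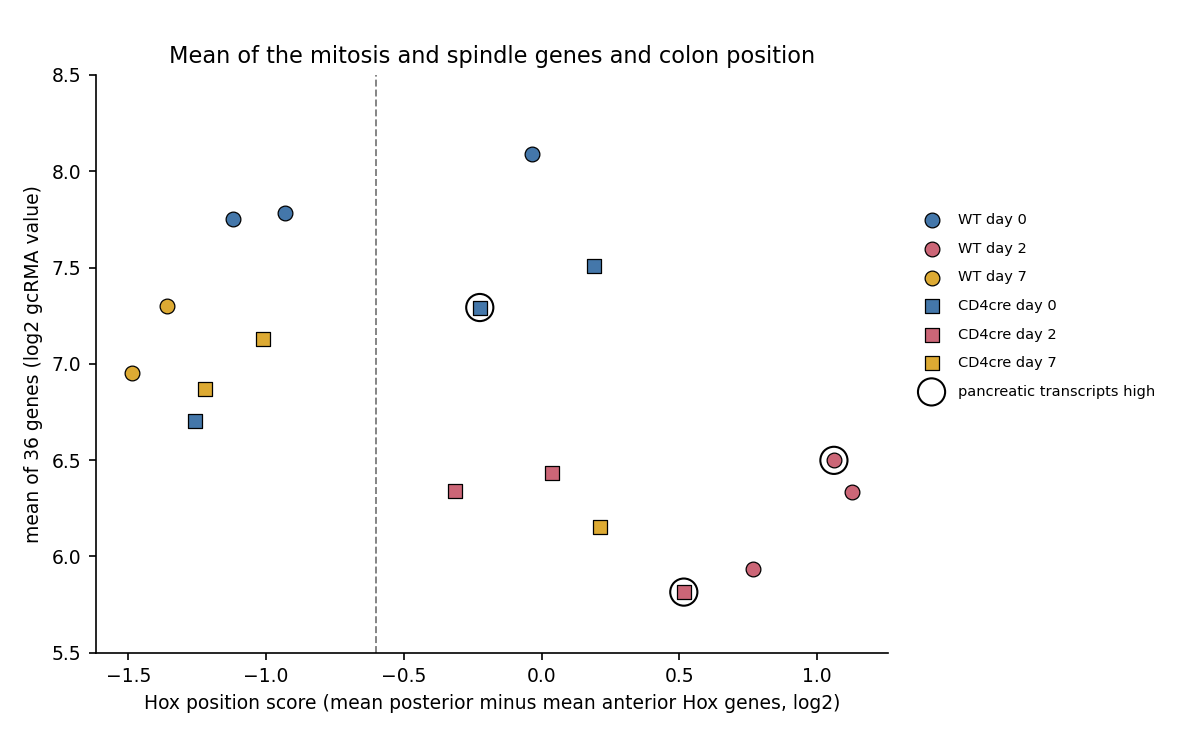
Mean of the 36 genes (log2 gcRMA value) against the Hox position score of each sample, by genotype (circles WT, squares CD4cre) and day (colours); rings mark the 3 samples with high pancreatic transcripts and the dashed line is at -0.6. Right of the line, the 3 samples of day 0 lie between 7.29 and 8.09 and the 6 of day 2 between 5.81 and 6.50.

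On day 7 the mean of the 36 genes stood between those of day 0 and day 2 in each genotype, and the comparisons of days 2 and 7 share the samples of day 0. In WT mice none of the 36 was called by limma against day 0 (0.0055% of all genes were called lower), and 14 were lower at an unadjusted p under 0.05, against 5.19%. The median log2 fold change was -0.76, all 36 means were lower, and 35 genes did not overlap, against 30.3% of all genes. Against day 2, none was called (0.159% called higher), 18 were higher at an unadjusted p under 0.05 (7.32%), and 28 did not overlap (18.3%). The median was 0.89. Mki67, at 10.03 and 10.09 in the 2 WT mice of day 7, had a log2 fold change of 1.26 (standard error 0.38, adjusted p = 0.232) against day 2 and of -0.62 (standard error 0.38, adjusted p = 0.49) against day 0. Cenpe had 1.84 (standard error 0.41, adjusted p = 0.113) against day 2, the lowest adjusted p of the 36.

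In CD4cre mice on day 7, Aurkb fell against day 0, as 1 of 36 genes, while 4.33% of all genes were called lower. Aurkb, the kinase of the passenger complex, was at 7.37, 7.68 and 6.86 in untreated WT mice, 5.63, 6.01 and 5.32 on day 2 and 6.28 and 6.56 on day 7. Aurkb in CD4cre mice was at 6.73, 6.56 and 6.23 on day 0, 4.79, 5.31 and 6.00 on day 2 and 5.21, 4.50 and 5.55 on day 7. Its mean in CD4cre mice on day 7 was the lowest of any group, and no value of day 7 reached those of day 0. Aurkb fell by 1.42 (SE 0.34, adjusted p = 0.0291) against day 0, or 2.68-fold, and had a log2 fold change of -1.34 (standard error 0.38, adjusted p = 0.112) against WT mice on day 7. The other Aurkb probe set, with a highest group mean of 5.76, was not called. It had -0.50 (adjusted p = 0.402) against day 0 and -0.51 (adjusted p = 0.686) against WT mice on day 7. The call of Aurkb ended without CD4cre day 0 replicate 1 or 2 or CD4cre day 7 replicate 1 or 2, and Nusap1 was called instead without CD4cre day 7 replicate 1. When each array was centred on its median, 8 genes were called. At an unadjusted p under 0.05, 8 of the 36 were lower, against 15.5% of all genes, and 6 did not overlap, against 32.5%. The second share was below that of all genes. The median was -0.43, with 31 means lower. The means of Top2a, Cenpe, Kif23, Incenp and Foxm1 were above those of day 0, and the means of Aurkb, Kif20b, Bub1b and Kif15 below those of day 2.

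Against day 2, Kif23 and Ect2 rose in CD4cre mice on day 7, 2 of 36 genes against 3.06% of all genes. Kif23 rose by 0.93 (standard error 0.22, adjusted p = 0.0337) and Ect2 by 0.96 (standard error 0.25, adjusted p = 0.0471). For both genes the 3 mice of day 7 were above the 3 of day 2. At an unadjusted p under 0.05, 14 of the 36 were higher (9.61% of all genes), and 10 did not overlap (8.32%), with a median of 0.63. The count of 2 was 5 without CD4cre day 7 replicate 2, 0 without replicate 1 or 3 of that group or without CD4cre day 2 replicate 1 or 2, and 1 or 2 without any other sample.

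CD4cre day 7 replicate 2 differed from the other mice of its group. Its mean of the 36 genes was 6.15, against 7.13 and 6.87. Its mean over 10 markers of macrophages was 10.59, against 9.37 and 9.41, and over 6 of neutrophils 7.03, against 5.55 and 5.48. Over 8 of fibroblasts it was 12.57, against 11.43 and 11.38. Among the samples with the lower position score, the mean of the 36 genes was 6.70 in the single CD4cre mouse of day 0 and 7.13 and 6.87 in the 2 of day 7. The median log2 difference over the 36 genes was then 0.34, with 9 means lower, and it rests on 1 sample of day 0, the lowest of its group. The part of position and of infiltrating cells in these values was not tested further.

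Untreated CD4cre mice were lower than untreated WT mice for each of the 36 means. The median log2 difference was -0.72, and 23 genes did not overlap, against 7.92% of all genes. None was called by limma (0.0055% of all genes), and 15 were lower at an unadjusted p under 0.05, against 2.42%. Kif23 had a difference of -0.72 (standard error 0.22, adjusted p = 0.881) and Tpx2, which nucleates spindle microtubules, one of -1.14 (standard error 0.37, adjusted p = 0.896). CD4cre day 0 replicate 3 was the lowest of its group for most genes, and the fits without 1 sample each had medians between -0.88 and -0.46. On day 2 the median difference was -0.06. None was called (0.011% of all genes were called lower), none was lower at an unadjusted p under 0.05 (3.16%) and 2 did not overlap (6.5%). On day 7 the median was -0.33. None was called (1.12%), 3 were lower at an unadjusted p under 0.05 (11.3%) and 9 did not overlap (21.2%), which is close to the background.

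The change from day 0 was compared between the genotypes. On day 2 the log2 fold change was less negative in CD4cre than in WT mice for all 36 genes, with a median difference of 0.61, and the 2 effects share no samples. This difference is the gap between genotypes on day 2 minus the gap on day 0. The median gap, CD4cre minus WT, was -0.06 on day 2 and -0.72 on day 0. A lower level in untreated CD4cre mice and a weaker response to DSS cannot be told apart here. None was called by limma (0% of all genes), and Cenpe, Cenpf, Ttk and Kif23 had an unadjusted p under 0.05, 4 of 36 against 2.51% of all genes. On day 7 the median difference was 0.32, with none called (0.0605%) and none at an unadjusted p under 0.05 (4.45%). These tests do not show that the genotypes respond alike: the interval of Cenpf on day 2 was 0.02 to 2.48.

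Genes of the same processes outside the list were read with lists chosen with earlier results known. Of all genes, 0.715% were called lower in the pooled contrast of day 2. The lists were not refitted without the samples with pancreatic transcripts or with the position score, settings that left few or no calls among the 36 genes. With both genotypes in 1 contrast on day 2, 12 of 32 other spindle and cytokinesis genes fell, among them Racgap1, the partner of Kif23 in centralspindlin, by 1.62 (SE 0.24, adjusted p = 0.0149), Pbk by 1.44, Hmmr by 1.38, Cep55 by 1.32 and Nek2 by 1.26. Of 17 genes of condensin, cohesin and chromatid separation, 8 fell, led by Esco2, which acetylates cohesin, by 1.67 and the condensin subunits Ncapg by 1.30 and Ncapd2 by 1.13. Of 34 other kinetochore genes 4 fell, Spc25 by 1.30, Zwilch by 1.24, Cenpw by 1.22 and Ska1 by 0.86. Of 22 genes of the anaphase-promoting complex and mitotic entry 3 fell, Ube2c, its E2 enzyme, by 1.66, Cks1b by 0.61 and Ube2s by 0.57. The medians of these 4 lists were -0.44, -0.60, -0.59 and -0.21, beside -1.35 for the 36 genes and -0.02 for all genes.

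Genes of earlier steps of the cell cycle were read in the same contrast, beside the same 0.715% of all genes called lower, and were not refitted either. Of 36 genes of DNA replication 2 fell, Mcm4 by 0.53 and Gins4 by 0.23, with a median of -0.38. Of 18 regulators of cell cycle genes 1 fell, the repressor E2f7, by 0.68, and of 16 CDK inhibitors and growth arrest genes 1 fell, Cdkn2d, by 0.43. None of 7 G1 cyclins, their kinases and Myc was called, and their median was -0.05. Of 12 measured genes of the crypt base 1 fell, the Wnt target Axin2, by 1.28. All 12 means were lower, 6 of them at an unadjusted p under 0.05, with a median of -0.55. None of 8 epithelial, 8 goblet cell and 11 colonocyte markers was called, with medians of 0.10, 0.20 and -0.04.

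In the contrast of WT mice, the B cell markers Ms4a1 and Cd79b rose on day 2, by 2.71 and 2.62, 2 of 9 measured, against 0.434% of all genes called higher. All 10 means of macrophage markers were higher on day 2 in each genotype. With both genotypes in 1 contrast Cd68 rose, by 1.54, as 1 of these 10 markers, against 0.863% of all genes, 7 were higher at an unadjusted p under 0.05, and the median was 0.45. The B cell list had a mean of 3.63 to 4.09 in WT mice on day 2 and of 2.92 to 3.04 on day 0. In CD4cre mice its mean was 2.86 to 2.98 on day 2 and 2.92 to 2.94 on day 0. None of 6 germinal centre markers was called in WT mice at that time. Among CD4cre mice on day 7 against day 0, all 10 macrophage markers rose, led by Cd68 with 3.45, 6 of 8 fibroblast markers rose, led by Col1a1 with 1.77, and S100a8 and S100a9 of neutrophils rose by 7.26 and 8.03, while 4.35% of all genes were called higher. Of 12 crypt base genes 4 fell in that comparison, among them Lgr5 by 3.28 and Znrf3 by 1.30, against 4.33% of all genes called lower. Nkd1, also of the crypt base list, rose by 0.44. The part of these cell types in the levels of the mitosis genes was not tested.

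The genes most like the mean of the 36, by Pearson r over the 17 samples among 11818 genes above background, were Ncaph (r = 0.984), Nek2 (r = 0.983), Shcbp1 (r = 0.980), Ube2c (r = 0.978), Pbk, Kif22, Cdca3, Melk, Racgap1, Spc25, Smc2, Knstrn, Zwilch, H2ax and Cenpw (r = 0.952). Shcbp1, Cdca3, Knstrn and H2ax were on none of the lists. Knstrn, a protein of the kinetochore and spindle, had a pooled log2 fold change of -1.25 on day 2 (adjusted p = 0.0154). These genes were picked because they follow the mean of the 36 in the same samples, so their falls on day 2 are no separate support.

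Other probe sets of the 36 genes were read as well. Of 47 further probe sets, 6 were called lower on day 2 in WT mice and 11 with both genotypes in 1 contrast. A mean above background in at least 1 group was reached by 28 of the 47. Of these 28, 27 were lower on day 2 in WT mice, with a median of -1.13, and 5 were called. With both genotypes in 1 contrast 27 of the 28 were lower, with a median of -0.80, and 10 were called. In CD4cre mice on day 7 against day 0, 23 of the 28 were lower and 1, of Bub1, was called. A probe set can pass this filter through day 0 alone, so the falls among the 28 are no separate support.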

How the data were processed

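Total RNA of the colon was hybridised to Affymetrix mouse whole-genome expression arrays, 1 per sample. The deposited values are log2 expression values, made by the authors with gcRMA in R 2.9.0 (background correction, quantile normalization and summary of probes), and range from 0.76 to 16.5. Signal at the probe level and array dates were not used here, so batches could not be checked. All columns were mapped to a sample by its label, and 0 columns were left over. Of 45101 probe sets, 64 controls were left out. Of the other 45037, 34945 had 1 gene symbol in the platform annotation, 932 had several and 9160 had none.

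Group means of 6 groups were fitted to all 17 samples with limma 3.58.1 (lmFit, contrasts.fit and eBayes, two-sided) in R 4.3.3, for 12 comparisons. P-values were adjusted by the Benjamini-Hochberg method over the 45037 probe sets, and a call is an adjusted p under 0.05. The fit had 11 residual and 0.888 prior degrees of freedom. Every adjusted p printed is from this fit, and SE is its standard error. Scripts were tested on simulated data. The members and all gene lists were chosen with earlier results of these data known. Values in every sample are given for the 16 called genes with the smallest p in a DSS comparison and for genes that stand for each role, and up to 5 called genes with the largest change are named from other lists. The list of other tissues behind the background level was shortened from 111 to 89 genes after its values were seen, which moved the level from 5.01 to 3.25.

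Samples of a group correlated with r between 0.978 and 0.997 over all probe sets (16 pairs), and no 2 columns were identical. Alternatives were median centring, limma's trend and robust options, only the groups compared, a filter on low values, the mean of all probe sets of a gene, the replicate number as a block, leaving out each sample or the 3 samples with pancreatic transcripts, and the Hox position score as a covariate or as a split. The promoter stretch of 1 gene is not reported here.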

Additional observations from a re-analysis of the deposited data

How the results depend on the processing

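Median log2 fold changes over the 36 genes kept their sign under all alternatives in 10 of the 12 comparisons. The exceptions were CD4cre day 7 against day 0 (25 of 26) and CD4cre against WT on day 2 (22 of 25, from -0.26 to 0.20). Counts of called genes depended on the setting, and the cause was not tested. For WT day 2 against day 0, 12 genes became 1 with only the groups compared, 29 with a filter on low values, 24 with the mean of all probe sets (median -1.29), 1 without the samples with pancreatic transcripts, 0 with the Hox covariate and 2 among samples with a score above -0.6 (1 WT sample on day 0). For the pooled day 2 contrast, 29 became 1, 0 and 16 under the last 3 of these, and the mean of all probe sets gave a median of -0.98. For CD4cre day 7 against day 0, 1 gene became 8 with median centring, 3 with the filter, and 0 with only the groups compared, the mean of all probe sets, without the samples with pancreatic transcripts, and among samples with a score below -0.6 (median 0.34, 1 sample on day 0). For CD4cre day 7 against day 2, 2 became 1 with median centring or the mean of all probe sets, and 0 with only the groups compared, without the samples with pancreatic transcripts or with the Hox covariate. The median difference of the day 2 effects was 1.03 without the samples with pancreatic transcripts.

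Deviations of same-numbered samples from their group means correlated with r from -0.45 to 0.51, and r was over 0.1 in 16 of 40 pairs. This does not settle if the numbers pair the samples, and the main fit had no replicate block. With the number as a replicate block, 6 genes were called in WT mice on day 2, 17 in the pooled day 2 contrast, 0 in CD4cre mice on day 7 against day 0 and 0 against day 2.

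The fits without 1 sample each had 0 to 26 called genes in WT mice on day 2 (median -1.81 to -1.50), 0 to 1 in CD4cre mice (-1.19 to -0.72) and 7 to 30 in the pooled contrast (-1.48 to -1.25). On day 7 against day 0 it gave 0 genes in WT mice (-0.95 to -0.58) and 0 to 1 in CD4cre mice (-0.68 to -0.16), and against day 2 it gave 0 to 1 (0.68 to 1.04) and 0 to 5 (0.33 to 0.87). Between genotypes it gave 0 genes on day 0 (-0.88 to -0.46) and day 2 (-0.26 to 0.15) and 0 to 1 on day 7 (-0.52 to -0.08). The differences of effects had 0 genes on day 2 (0.38 to 0.85) and day 7 (0.11 to 0.57). Groups of 2 or 3 arrays and genes near background limit the precision.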
